A study of Homo sapiens with 6 samples.

Results

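EoL-1 is a human cell line derived from eosinophilic leukaemia. 33 genes of the NRF2 response, of oxidant defence and of iron handling were described in it. They are a named list of 33 genes among the 35052 genes with a row in the gene table: 4 regulators of the response, 6 glutathione genes, 6 thioredoxin and peroxiredoxin genes, catalase and superoxide dismutase 1, 4 quinone, haem and other NRF2 targets, 4 genes of the pentose phosphate pathway and of NADPH supply, and 7 iron genes. Their level was not used to choose them, but the list was chosen with earlier results of these data known. The estimated reads of every transcript were summed per gene in 6 RNA-seq libraries of polyA RNA, 3 labelled ATF3/JUN double knockout and 3 labelled JUN knockout. CRISPR/Cas9 is the editing method given. All 6 libraries thus carry the JUN knockout label, no unedited library was analysed here, and the question the design poses is what the additional loss of ATF3, a bZIP transcription factor of the stress response, goes with. Nothing in the labels ties replicates to distinct cultures or clones. The p-values therefore reflect library-to-library spread alone, which may be technical.

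NRF2, encoded by NFE2L2, is a bZIP factor that pairs with small MAF proteins and binds the antioxidant response element, a short DNA motif whose core overlaps in its letters with the AP-1 site of JUN and its partners. KEAP1 holds NRF2 in a ubiquitin ligase and lets it escape when its cysteines are oxidised, and BACH1, a haem sensor, occupies the same elements as a repressor. The targets make and recycle glutathione, reduce thioredoxin and peroxiredoxins, supply NADPH, break down haem and store iron. Iron is also controlled after transcription: the iron regulatory proteins, encoded by ACO1 and IREB2, bind a hairpin in mRNAs called the iron responsive element. Bound near the start of ferritin mRNA it blocks translation, and bound in the tail of the transferrin receptor mRNA it protects that mRNA from decay.

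The libraries held 26146998 to 29567970 estimated reads. ATF3 mRNA was at 13.1, 10.0 and 7.63 CPM (reads scaled to a common library total, after TMM scaling) in double knockout libraries 1, 2 and 3, against 20.2, 13.7 and 8.89 CPM in JUN knockout libraries 1, 2 and 3. JUN mRNA was at 13.8, 16.6 and 25.7 CPM in the double knockout libraries, against 13.2, 27.2 and 24.6 CPM in the JUN knockout libraries. The groups overlapped for both genes. ATF3 was lower in each double knockout library than in its same-numbered JUN knockout library, at a log2 fold change of -0.48 (SE 0.32), or -0.44 (SE 0.13) with the replicate number as a block. Its adjusted p was 0.931 without the block and 0.394 with it in edgeR's quasi-likelihood test, with an unadjusted p of 0.183 and 0.00988. ATF3 mRNA also fell from number 1 to number 3 in both genotypes. In edgeR's quasi-likelihood test of the replicate number, the adjusted p was 0.0526 for ATF3 and 0.129 for JUN, so neither passed. An edited gene can still be transcribed, so mRNA is a weak check of the labels. The label calls the cells eosinophils. 3 of 12 eosinophil markers reached a mean of 1 CPM (RNASE2, RNASE3 and GATA2), and 5 were at 0 in all 6 libraries, EPX, CLC and IL5RA among them. The summed eosinophil markers were at 70.3 to 114 CPM in the double knockout libraries and at 42.2 to 121 CPM in the JUN knockout libraries. The erythroid markers, which would bring haem and iron genes of their own, were at 16.4 to 22.7 CPM in the double knockout libraries and at 18.6 to 21.2 CPM in the JUN knockout libraries, with 7 of 10 at 0 throughout. In bulk RNA, fewer cells of a type and less RNA per cell cannot be told apart.

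The 33 genes spanned a wide range of levels. In TPM, which is scaled for length so that genes can be set side by side, the ferritin light chain gene FTL was highest, at 1960 ± 210 TPM in the double knockout and 1902 ± 317 TPM in the JUN knockout libraries (SD, n = 3 each). PRDX1, the ferritin heavy chain gene FTH1, TKT, TXN and GPX1 followed, at means over the 6 libraries of 929, 825, 622, 442 and 423 TPM. The other end held 4 genes under 1 TPM: ME1 at 0.503, OSGIN1 at 0.380, the iron exporter SLC40A1 at 0.160 and the haem oxygenase gene HMOX1 at 0.157 TPM. NQO1, the quinone reductase often read as a marker of NRF2 activity, had a mean of 5.50 TPM, and the glutamate-cysteine ligase subunits GCLC and GCLM had 14.7 and 8.85 TPM. Among the regulators, KEAP1 was highest at 85.1 TPM, followed by NFE2L2 at 46.5, MAFG at 30.7 and BACH1 at 11.6 TPM. The ranges of NFE2L2 and MAFG over the 6 libraries overlapped, while those of KEAP1 and BACH1 lay apart from the other regulators.

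**Figure D1:**
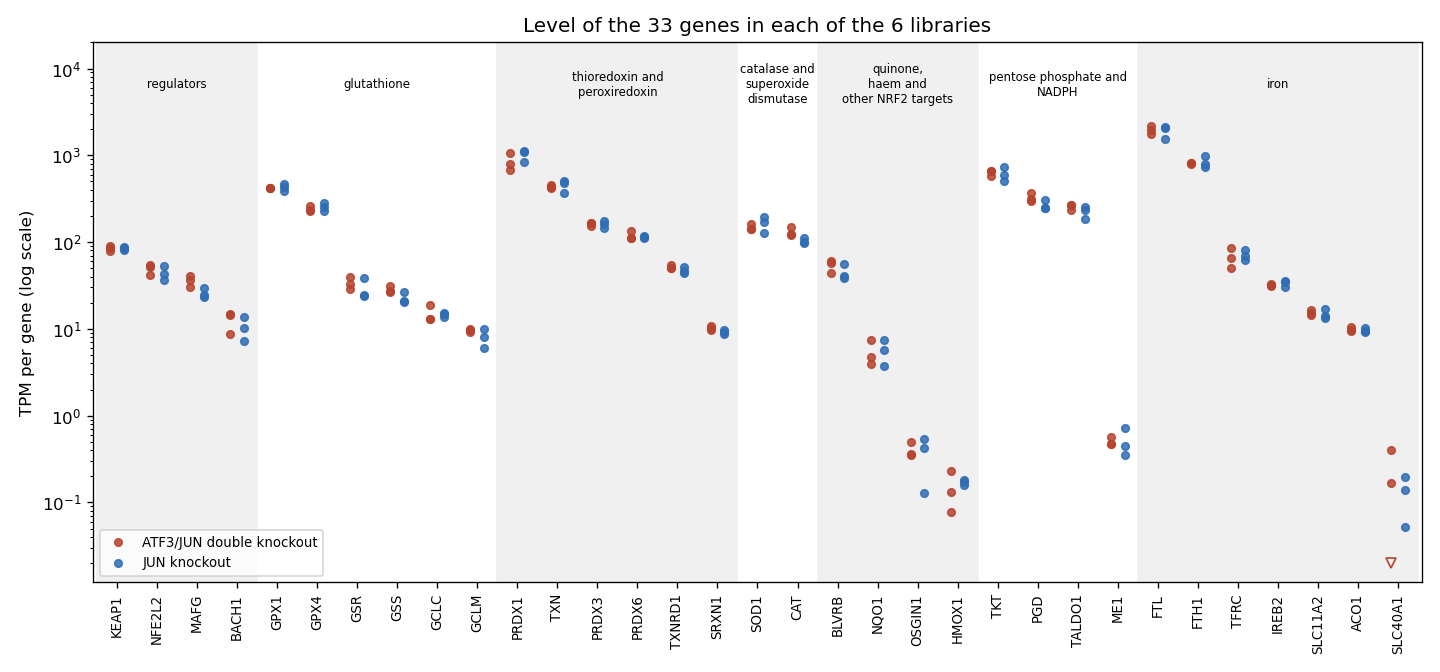
TPM per gene on a log axis for the 33 genes, grouped by role and ordered by mean level within a role, with 1 point per library (double knockout left, JUN knockout right). FTL is highest at a mean of 1931 TPM and HMOX1 lowest at 0.157 TPM; the open triangle at the foot marks SLC40A1 listed at 0 in double knockout library 2.

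None of the 32 genes that passed the filter on low counts was called between the genotypes (0 of 32, edgeR's quasi-likelihood test with Benjamini-Hochberg adjustment over all genes, threshold 0.05), and neither was any of the 12954 genes tested (0%). HMOX1 did not pass that filter. The adjusted p of the 32 genes lay between 0.789 and 0.998 in edgeR's quasi-likelihood test. DESeq2 called 71 of all genes and limma-voom 4, and both called 0 of the 33. An unadjusted p under 0.05 was found for 3 of the 32, which is 9.38%, against 5.81% of all genes tested. All 3, CAT, MAFG and PGD, were on the side higher in the double knockout (2.93% of all genes), and 0 were on the lower side (2.89%). The same 3 genes were those with every double knockout library above every JUN knockout library (6.31% of all genes), and no gene had every double knockout library below (5.94%). For the other 29 the groups overlapped.

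Most of the differences were small. The log2 fold change (double knockout minus JUN knockout) was within 0.25 of 0 for 28 of the 32 genes and within 0.1 for 19. It was above 0 for 21 of 32, which is 65.6%, against 50.7% of all genes, and its median was 0.04, against 0.003 over all genes. By role the medians were 0.12 for the 4 regulators, 0.02 for the glutathione genes, -0.01 for the thioredoxin and peroxiredoxin genes, 0.12 for catalase and superoxide dismutase, 0.17 for the 3 tested quinone and haem genes, 0.06 for the pentose phosphate and NADPH genes and 0.03 for the iron genes. All 4 regulators and all 4 pentose phosphate and NADPH genes had a value above 0, while 4 of 6 thioredoxin and peroxiredoxin genes had one below 0. Several of these values were smaller than their SE and changed sign with libraries left out, those of KEAP1, TKT, ME1, PRDX3 and PRDX6 among them.

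**Figure D2:**
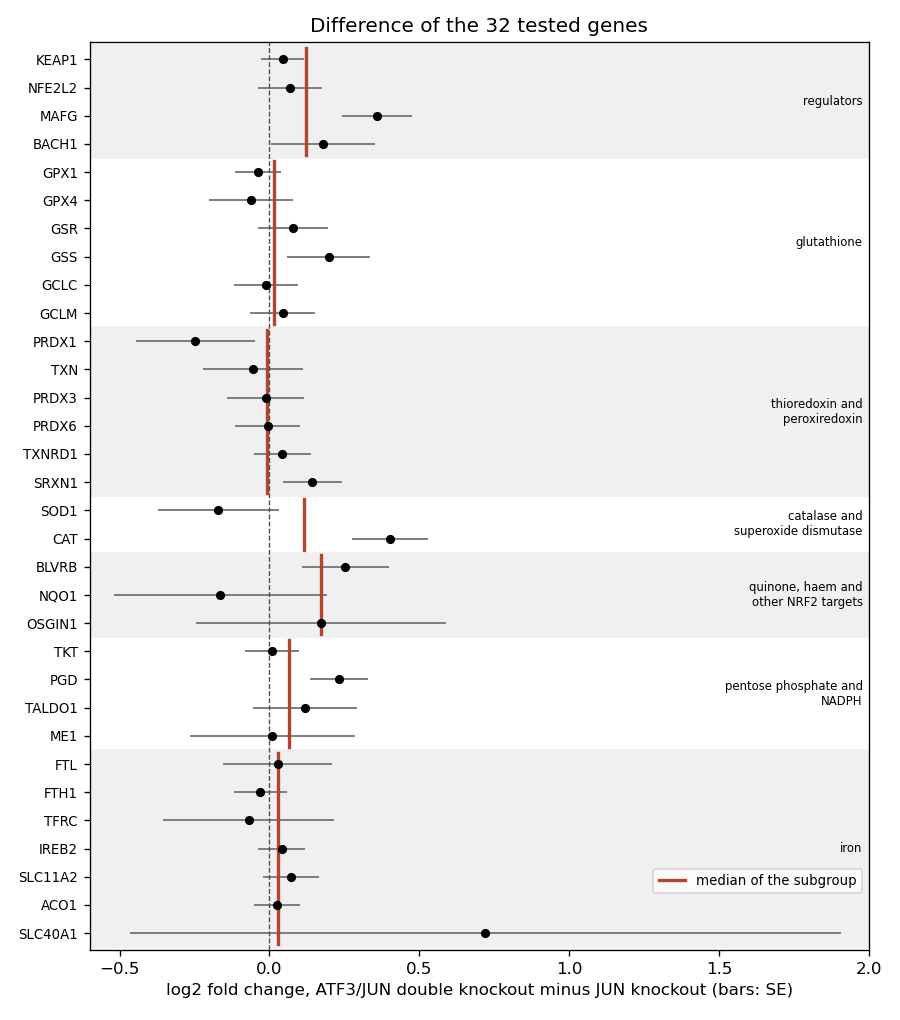
log2 fold change of the 32 tested genes, double knockout minus JUN knockout, with bars of 1 standard error and a vertical line for the median of each role. MAFG at 0.36, CAT at 0.40 and PGD at 0.23 are the genes whose unadjusted p is under 0.05; SLC40A1 has the widest bar, with a standard error of 1.19.

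The same-numbered libraries of both genotypes were taken as pairs, which no label states. The values gave little sign of a pair for number 2. Its correlation after subtracting group means was 0.103, against 0.201 for double knockout library 2 with JUN knockout library 1. The counts of pairs and the fits with a block rest on this pairing. 7 of the 32 genes were higher in the double knockout in 3 of 3 pairs (MAFG, BACH1, GSR, SRXN1, CAT, BLVRB and PGD), which is 21.9%, against 18% of all genes. 2 were lower in 3 of 3 pairs (PRDX1 and TFRC), which is 6.25%, against 15.1%. The third pair of TFRC was nearly level, at 301.7 CPM in the double knockout and 302.4 CPM in the JUN knockout library. With the replicate number as a block, edgeR's quasi-likelihood test again called 0 of 32 after adjustment, with a lowest adjusted p of 0.314 for MAFG, and 0% of all genes. An unadjusted p under 0.05 with the block was seen for 5 of 32, which is 15.6%, against 9.79% of all genes. It was seen for 4 genes on the higher side, MAFG at 0.00264, CAT at 0.00745, BLVRB at 0.0247 and PGD at 0.0265, against 5.3% of all genes, and for 1 on the lower side, PRDX1 at 0.0412, against 4.49%.

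MAFG encodes a small MAF protein, the partner NRF2 needs to bind DNA (chr17:81918270-81927714, minus strand, GRCh38). It was at 174, 150 and 136 CPM in the double knockout libraries, against 132, 112 and 115 CPM in the JUN knockout libraries. The groups did not overlap, but the lowest double knockout library and the highest JUN knockout library were close. The log2 fold change was 0.36 with an SE of 0.12, and the adjusted p was 0.789 in edgeR's quasi-likelihood test. In TPM it averaged 35.6 ± 5.36 in the double knockout and 25.8 ± 3.47 in the JUN knockout libraries (SD, n = 3 each). NFE2L2 itself was at 95.1, 92.1 and 78.8 CPM in the double knockout and 93.0, 81.3 and 79.4 CPM in the JUN knockout libraries. Its inhibitor KEAP1 was at 142, 135 and 139 CPM in the double knockout and 129, 137 and 138 CPM in the JUN knockout libraries, one of the narrowest ranges of the list. The repressor BACH1 was at 56.8, 54.5 and 40.1 CPM in the double knockout and 53.1, 42.6 and 38.0 CPM in the JUN knockout libraries. Both groups overlapped for these 3 genes, whose log2 fold changes were 0.07 (SE 0.11) for NFE2L2, 0.04 (SE 0.07) for KEAP1 and 0.18 (SE 0.17) for BACH1. BACH1 was lowest in the libraries numbered 3 in both genotypes.

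CAT encodes catalase, which splits hydrogen peroxide in peroxisomes (chr11:34438925-34472062, plus strand, GRCh38). It had 279, 222 and 247 CPM in the double knockout libraries, against 170, 181 and 216 CPM in the JUN knockout libraries. The widest gap was between the libraries numbered 1. The log2 fold change was 0.40 with an SE of 0.13 and an adjusted p of 0.789 in edgeR's quasi-likelihood test, and it was 0.24 without both libraries of number 1. SOD1, the cytosolic copper and zinc superoxide dismutase that produces hydrogen peroxide, was at 119, 114 and 141 CPM in the double knockout, against 99.1, 148 and 173 CPM in the JUN knockout libraries. JUN knockout library 1 was the lowest of all and the other two JUN knockout libraries were the highest, so the groups overlapped, at a log2 fold change of -0.17 (SE 0.20).

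PGD encodes 6-phosphogluconate dehydrogenase, which makes NADPH in the pentose phosphate pathway (chr1:10398592-10420144, plus strand, GRCh38). It had 382, 311 and 326 CPM in the double knockout libraries, against 300, 288 and 280 CPM in the JUN knockout libraries. Double knockout library 1 stood above the other five, and the log2 fold change of 0.23 (SE 0.10) was 0.14 without it. TKT, the transketolase of the non-oxidative branch, was at 850, 787 and 771 CPM in the double knockout and 856, 820 and 721 CPM in the JUN knockout libraries. Its log2 fold change was 0.01 with an SE of 0.09. TALDO1, the transaldolase of the same branch, averaged 201 ± 26.4 CPM in the double knockout and 185 ± 38.0 CPM in the JUN knockout libraries (SD, n = 3 each). ME1, the cytosolic malic enzyme, was at 1.69, 1.93 and 1.73 CPM in the double knockout and 2.39, 1.62 and 1.31 CPM in the JUN knockout libraries. Those values rest on 34 to 65 reads, and JUN knockout libraries were both highest and lowest.

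**Figure D3:**
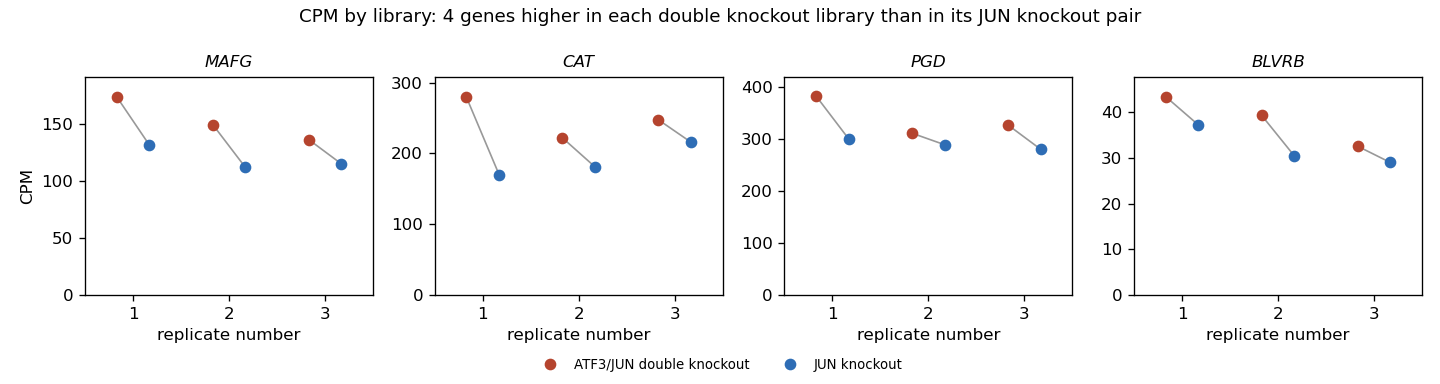
CPM of MAFG, CAT, PGD and BLVRB in the 6 libraries, with the same-numbered double knockout (left) and JUN knockout (right) libraries joined by a line. In all 3 pairs of each gene the double knockout library is the higher; MAFG runs from 136 to 174 CPM in the double knockout libraries and from 112 to 132 CPM in the JUN knockout libraries.

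Among the glutathione genes, GPX1, the abundant cytosolic glutathione peroxidase, was highest. It was at 316, 296 and 322 CPM in the double knockout and 322, 333 and 304 CPM in the JUN knockout libraries, a log2 fold change of -0.04 (SE 0.08). GPX4, which reduces lipid peroxides in membranes, averaged 167 ± 19.6 CPM in the double knockout and 175 ± 27.0 CPM in the JUN knockout libraries (SD, n = 3 each). GCLM, the modifier subunit of the ligase that starts glutathione synthesis, was lowest of the glutathione genes by CPM. It was at 28.6, 24.5 and 23.6 CPM in the double knockout and 25.9, 23.5 and 25.1 CPM in the JUN knockout libraries. Its catalytic partner GCLC had 31.0 to 39.1 CPM in the double knockout and 34.5 to 37.3 CPM in the JUN knockout libraries. GSS, glutathione synthetase, had 24.7 to 30.4 CPM in the double knockout and 20.1 to 26.7 CPM in the JUN knockout libraries, with a log2 fold change of 0.20 (SE 0.14) that was 0.10 without double knockout library 1 and 0.097 without JUN knockout library 1. GSR, the reductase that recycles glutathione with NADPH, had 82.8 to 98.5 CPM in the double knockout and 78.2 to 96.2 CPM in the JUN knockout libraries. Groups overlapped for all 6 genes.

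In the thioredoxin system, PRDX1, a cytosolic peroxiredoxin, had the most negative log2 fold change of the list, at -0.25 with an SE of 0.20. It was -0.12 without double knockout library 1, -0.46 without double knockout library 3 and -0.39 without JUN knockout library 1. PRDX1 was at 334, 367 and 517 CPM in the double knockout and 385, 530 and 530 CPM in the JUN knockout libraries. Each double knockout library was below its pair, yet double knockout library 3 was above JUN knockout library 1. SRXN1, sulfiredoxin, which repairs overoxidised peroxiredoxins, was at 29.995, 26.003 and 30.043 CPM in the double knockout and 25.357, 25.291 and 27.251 CPM in the JUN knockout libraries. Its log2 fold change was 0.14 with an SE of 0.10. TXN, thioredoxin, had 228 to 263 CPM in the double knockout and 190 to 295 CPM in the JUN knockout libraries. TXNRD1, the reductase that recharges it, had 157 to 180 CPM in the double knockout and 151 to 179 CPM in the JUN knockout libraries. The mitochondrial PRDX3 had 220 to 245 CPM in the double knockout and 191 to 264 CPM in the JUN knockout libraries, and PRDX6 had 122 to 145 CPM in the double knockout and 118 to 145 CPM in the JUN knockout libraries. The double knockout ranges of TXN and PRDX3 lay inside those of the JUN knockout.

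Of the quinone and haem genes, BLVRB, biliverdin reductase B, was highest. It was at 43.5, 39.3 and 32.6 CPM in the double knockout and 37.3, 30.5 and 29.02 CPM in the JUN knockout libraries. The groups overlapped, while each double knockout library was above its pair, at a log2 fold change of 0.25 (SE 0.14). NQO1 was at 4.87, 5.50 and 9.58 CPM in the double knockout and 4.67, 7.73 and 9.97 CPM in the JUN knockout libraries, with a log2 fold change of -0.16 (SE 0.36). OSGIN1, an oxidative stress induced growth inhibitor, had 0.493 to 0.672 CPM in the double knockout and 0.252 to 0.731 CPM in the JUN knockout libraries. HMOX1, haem oxygenase 1, had 2, 2 and 8 estimated reads in the double knockout and 6, 6 and 7 in the JUN knockout libraries. At that depth no difference in HMOX1 was detectable, and no fold change is given.

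The promoters were searched for the letters of the antioxidant response element in the RefSeq windows (GRCh38) of 250 bases before to 50 bases after a start site. 26 of the 33 genes had a window, and some had several, 37 windows in all. TGACNNNGC, on either strand, was in 6 of the 37 windows and in 13.3% of all 35116 windows of the same length. The matches are shown because the letters of this element and of the AP-1 site are closely alike. Each is read on the strand of the gene with 10 bases on either side, and capitals mark the match, which is in reverse where it starts with GC. A further match in each of ME1 (TGACGGTGC) and TXNRD1 (TGACGGAGC) reached or lay past the start site of its window and is given here by its letters alone. A start site of a RefSeq window need not be the outermost start of the gene. The matches of PGD and KEAP1, and that of TXNRD1 at chr12:104286920-104286948, lay inside the GENCODE span of their gene.
PGD, chr1:10398853-10398881, plus strand: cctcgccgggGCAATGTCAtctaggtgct
GCLM, chr1:93909446-93909474, minus strand: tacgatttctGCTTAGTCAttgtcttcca
ME1, chr6:83431170-83431198, minus strand: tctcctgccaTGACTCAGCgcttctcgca
TXNRD1, chr12:104215670-104215698, plus strand: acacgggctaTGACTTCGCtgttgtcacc
TXNRD1, chr12:104286920-104286948, plus strand: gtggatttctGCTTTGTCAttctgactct
KEAP1, chr19:10502807-10502835, minus strand: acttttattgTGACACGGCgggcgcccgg
KEAP1, chr19:10502784-10502812, minus strand: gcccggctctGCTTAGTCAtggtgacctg

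GCLM and KEAP1 shared the letters GCTTAGTCA. In ME1 the match TGACTCAGC contains an AP-1 site, TGACTCA, so both motifs overlap there. AP-1 letters, TGACTCA or TGAGTCA, were in 3 of the 37 windows, those of ME1, OSGIN1 and BACH1, and in 4.95% of all windows. The CRE, TGACGTCA, a site that ATF proteins bind, was in 0 of the 37 and in 1.85% of all windows. At so low a share, 0 of 37 is no sign of a lack. The 5 genes with a response element match had log2 fold changes of 0.23 for PGD, 0.04 for GCLM, 0.01 for ME1, 0.04 for TXNRD1 and 0.04 for KEAP1. MAFG and CAT, the other genes whose groups did not overlap, had no match in their windows. These matches are letters in a short window and say nothing of binding.

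The iron genes hold the other regulatory motif. A pattern of the iron responsive element, a bulged C, a stem of 5 paired bases and the loop CAGTG followed by A, C or T, was searched in the GENCODE transcripts, where it occurred in 0.430% of 167125. 4 of the 33 genes had it. SLC11A2, known for such an element in some of its transcripts, had no match to this strict pattern. The sites are shown with the loop in capitals, on the strand of the gene and in GRCh38, because their place in the mRNA sets the importer TFRC, with sites in the 3′ UTR, apart from the storage genes FTL and FTH1 and the exporter SLC40A1, with a site in the 5′ UTR.
FTL, 5′ UTR, chr19:48965335-48965363, plus strand: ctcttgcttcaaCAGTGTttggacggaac
FTH1, 5′ UTR, chr11:61967574-61967602, minus strand: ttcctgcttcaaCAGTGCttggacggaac
SLC40A1, 5′ UTR, chr2:189580661-189580689, minus strand: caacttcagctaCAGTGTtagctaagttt
TFRC, 3′ UTR, chr3:196050979-196051007, minus strand: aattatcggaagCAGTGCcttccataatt
TFRC, 3′ UTR, chr3:196050575-196050603, minus strand: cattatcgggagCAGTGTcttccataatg
TFRC, 3′ UTR, chr3:196050510-196050538, minus strand: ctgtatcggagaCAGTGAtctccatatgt
TFRC, 3′ UTR, chr3:196050463-196050491, minus strand: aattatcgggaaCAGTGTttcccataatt

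The ferritin genes did not separate the genotypes. FTL was at 1390, 1213 and 1617 CPM in the double knockout and 1030, 1564 and 1545 CPM in the JUN knockout libraries. JUN knockout library 1 was the lowest and double knockout library 3 the highest, and the log2 fold change was 0.03 (SE 0.18). FTH1 had 454 to 482 CPM in the double knockout and 441 to 528 CPM in the JUN knockout libraries, a log2 fold change of -0.03 (SE 0.09). FTL has 1 transcript model and it carries the element, so its share of 100% was fixed by the annotation. For FTH1 the share of reads on transcripts with the element was 65.3%, 68.0% and 67.7% in the double knockout libraries. It was 64.8%, 63.5% and 64.5% in the JUN knockout libraries. The shares of FTH1 were higher in each double knockout library than in each JUN knockout library, a split that Salmon estimated among 12 overlapping transcripts and that was not tested. Both ferritin genes have many processed pseudogenes, with 16 named after FTL and 25 after FTH1, whose estimated reads came to at most 0.364% of those of pseudogene and parent together.

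TFRC encodes transferrin receptor 1, which imports iron (chr3:196027183-196082189, minus strand, GRCh38). Its mRNA varied with the replicate number, while the genotypes overlapped. It was at 156, 199 and 302 CPM in the double knockout and 172, 215 and 302 CPM in the JUN knockout libraries. Both libraries numbered 3 were highest and both numbered 1 lowest, and the means per number differed by up to 1.84-fold, while the genotypes differed by a log2 fold change of -0.07 (SE 0.29). In a test of the replicate number in the fit with the genotype (2 degrees of freedom), TFRC was the 1 gene of 32 called, with an adjusted p of 0.0162 in edgeR's quasi-likelihood test, and 1.75% of all genes tested were called. That adjusted p was 0.131 with an offset for transcript length, 0.118 without double knockout library 3 and 0.0506 without JUN knockout library 3. In simulated data this test called unchanged genes more often than its threshold states. The simulated spread came from a fit without the replicate number, so it gives no rate for these data. Transcripts with the element held 93.8% to 95.8% of TFRC reads in the 6 libraries.

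SLC40A1, ferroportin, the cellular iron exporter, had 37, 0 and 18 estimated reads in the double knockout and 13, 1 and 20 in the JUN knockout libraries. Double knockout library 2 and JUN knockout library 2 were at or near 0, where 3 reads in double knockout library 2 would be 0.114 CPM. The fitted log2 fold change of 0.72 had an SE of 1.19. Its adjusted p for the replicate number was 0.0720 in edgeR's quasi-likelihood test with all libraries. It was between 0.00232 and 0.0409 when double knockout library 1 or 3 or JUN knockout library 1 or 3 was left out. The importer SLC11A2, also called DMT1, had 33.6 to 34.9 CPM in the double knockout and 30.6 to 35.8 CPM in the JUN knockout libraries. Of the iron regulatory protein genes, ACO1 had 38.0 to 41.0 CPM in the double knockout and 39.1 to 39.5 CPM in the JUN knockout libraries, and IREB2 had 139 to 146 CPM in the double knockout and 130 to 147 CPM in the JUN knockout libraries. ACO1 had the narrowest range of the 33 genes, with a highest library 1.079 times the lowest.

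8 of the 32 genes had an unadjusted p under 0.05 for the replicate number, which is 25%, against 20% of all genes tested, so the share is near the background. They were TFRC, SLC40A1, NQO1, BACH1, PRDX1, BLVRB, GSR and SOD1. After adjustment in edgeR's quasi-likelihood test, NQO1 was at 0.0812, BACH1 at 0.115 and PRDX1 at 0.129, so none of these passed. NQO1, PRDX1 and SOD1 had their highest mean in the libraries numbered 3, whereas BACH1, GSR and BLVRB had their lowest there. Among related genes off the list, 5 of 148 (3.38%) were called for the replicate number, against 1.75% of all genes. SLC7A11, the cystine importer that feeds glutathione synthesis, was at 174, 141 and 61.9 CPM in the double knockout and 164, 89.1 and 50.0 CPM in the JUN knockout libraries. CHAC1, which degrades glutathione, was at 67.9, 52.6 and 22.5 CPM in the double knockout and 60.2, 46.7 and 22.5 CPM in the JUN knockout libraries. Both ran opposite to TFRC and are also known targets of ATF4. The stress gene SESN2 was at 48.5 to 106 CPM in the double knockout and 46.3 to 101 CPM in the JUN knockout libraries, again lowest in those numbered 3. SLC3A2, the partner chain of SLC7A11, was called on the same side, and MSRB1, a methionine sulfoxide reductase, was highest in those numbered 3 in both genotypes.

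**Figure D4:**
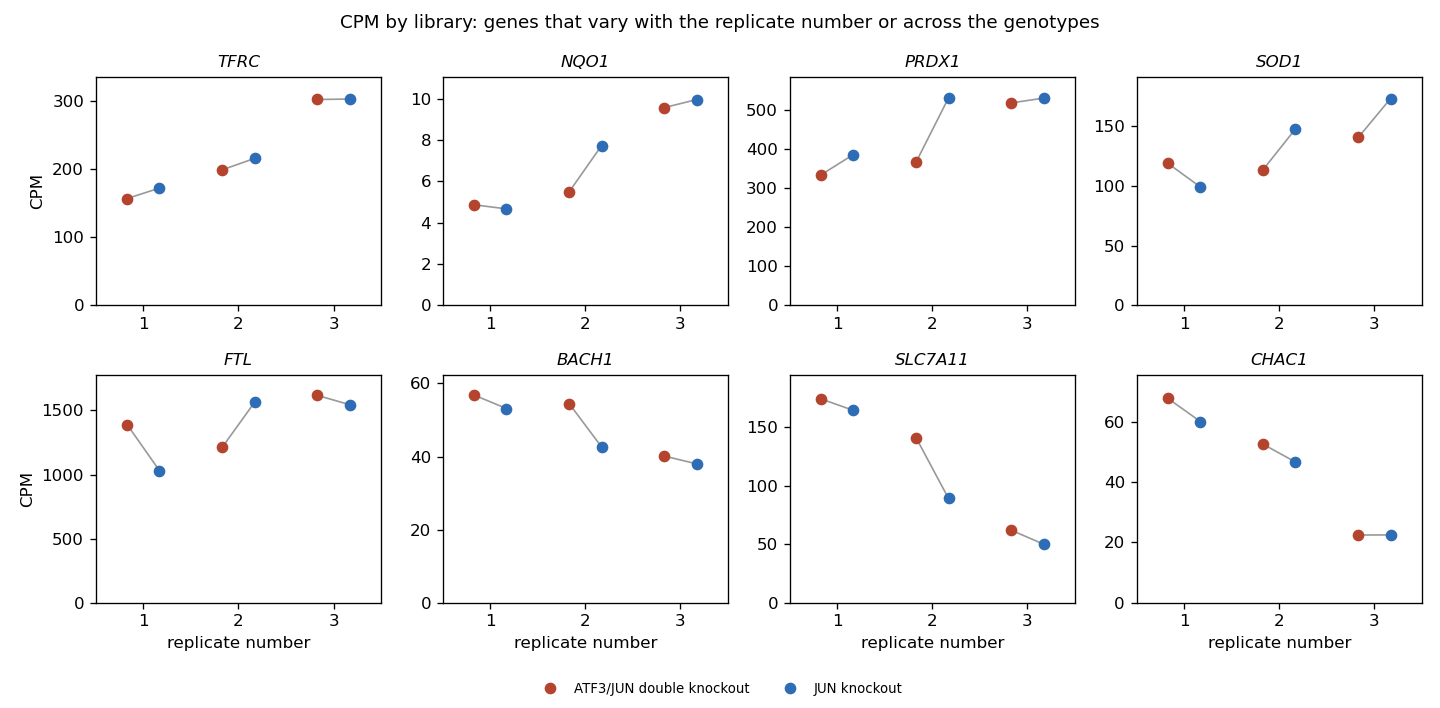
CPM by replicate number for TFRC, NQO1, PRDX1, SOD1, FTL and BACH1 of the list and for SLC7A11 and CHAC1 beside it, with same-numbered double knockout (left) and JUN knockout (right) libraries joined. TFRC is near 300 CPM in both libraries numbered 3 (302 CPM each), while PRDX1, SOD1 and FTL are low in double knockout libraries 1 and 2 and in JUN knockout library 1.

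Other arrangements of the libraries crossed both genotype and number. Double knockout libraries 1 and 2 and JUN knockout library 1 were the 3 lowest for 8 of the 32 genes, GPX4, PRDX1, TXN, PRDX3, SOD1, NQO1, FTL and TFRC, which is 25%, against 18.6% of all genes. The opposite 3 libraries were the lowest for 5, NFE2L2, BACH1, GSR, BLVRB and IREB2, which is 15.6%, against 17.8% of all genes. A further 8 had double knockout library 2 and JUN knockout libraries 1 and 2 as their lowest, against 4.88% of all genes, with little to separate them from the fourth library in any but SLC40A1. These arrangements were noticed in the values and have no test. The myeloid gene LYZ moved with the first of them, at 140, 210 and 430 CPM in the double knockout and 102, 380 and 371 CPM in the JUN knockout libraries. 3 of 8 monocyte and macrophage markers reached 1 CPM, 2 were at 0 in all libraries, and their sum, most of it LYZ, was 167 to 468 CPM in the double knockout and 126 to 411 CPM in the JUN knockout libraries. The other monocyte and macrophage markers that reached 1 CPM did not follow LYZ. CSF1R was at 23.9, 28.7 and 34.7 CPM in the double knockout and 21.3, 25.003 and 19.6 CPM in the JUN knockout libraries. FCN1 was lowest in JUN knockout library 1 and double knockout library 3. Of the eosinophil markers that reached 1 CPM, RNASE2 and RNASE3 had the same 3 lowest libraries as LYZ, and GATA2 did not. RNASE2 was at 67.7, 52.8 and 87.3 CPM in the double knockout and 30.2, 79.0 and 95.8 CPM in the JUN knockout libraries. JUN mRNA also had these 3 lowest libraries, while ATF3 and the erythroid marker EPOR did not. The B cell marker CD79A had the opposite 3 libraries as its lowest. It was at 8.12, 4.51 and 2.86 CPM in the double knockout and 6.10, 2.16 and 2.42 CPM in the JUN knockout libraries. Transcript length moved with the first arrangement too. Genes under 1000 bases had a median log2 deviation from their own mean of -0.02, -0.07 and 0.04 in the double knockout and -0.06, 0.05 and 0.07 in the JUN knockout libraries. Genes over 4000 bases had 0.01, 0.08 and -0.01 in the double knockout and 0.07, -0.06 and -0.07 in the JUN knockout libraries. 12 of the 32 genes are under 1000 bases, and the part of either in the gene values was not tested.

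The leading transcript model held under 50% of the reads in GSS, PRDX1, FTH1, TXNRD1, TFRC and GCLC, with GSS-204 lowest at 29.4%. In TKT the leading model was not a coding one: TKT-204, a model annotated for nonsense-mediated decay, was estimated to hold 61.9% to 63.6% of TKT reads in the 6 libraries. FTH1 had 2 such models, FTH1-210 with 21.9% and FTH1-208 with 14.7% of its reads over all libraries. For ACO1 the estimate switched between near-identical models. ACO1-202 held 92.3%, 90.8% and 81.7% of ACO1 reads in the double knockout and 0%, 73.6% and 90.4% in the JUN knockout libraries, while ACO1-203 held 91.0% in JUN knockout library 1. The gene total of ACO1 was level across the same libraries.

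The wider pathways were described from 9 further lists of 174 genes, of which 148 were tested and 0 were called by edgeR's quasi-likelihood test. 12 (8.11%) had an unadjusted p under 0.05 on the higher side, against 2.93% of all genes, and 3 (2.03%) on the lower side, against 2.89%. The lists were chosen with earlier results of these data known, so these shares are a description only. Among partners and inhibitors of NRF2, 8 of 10 had a log2 fold change above 0, with a median of 0.12. NFE2, a relative of NRF2 in blood cells, averaged 31.6 ± 7.55 CPM in the double knockout and 21.5 ± 3.33 CPM in the JUN knockout libraries (SD, n = 3 each). RBX1, a subunit of the KEAP1 ligase, had a log2 fold change of -0.16. Other genes with antioxidant response elements split 7 above and 6 below 0. TRIM16 averaged 208 ± 10.7 CPM in the double knockout and 175 ± 3.15 CPM in the JUN knockout libraries, and AKR1B1, aldose reductase, 159 ± 6.96 CPM in the double knockout and 186 ± 9.65 CPM in the JUN knockout libraries (SD, n = 3 each). Both were named for the lowest p of their list in their direction. The groups did not overlap for either gene, as for 6.31% of all genes on the higher side and 5.94% on the lower side.

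Other glutathione genes had 13 above and 10 below 0. OPLAH, 5-oxoprolinase of the glutathione cycle, had the lowest p among them, with 16.2, 15.2 and 12.3 CPM in the double knockout and 10.6, 9.61 and 6.62 CPM in the JUN knockout libraries. Its log2 fold change was 0.70 with an SE of 0.20, and its adjusted p was 0.789 in edgeR's quasi-likelihood test. HAGH, a glyoxalase, had a log2 fold change of -0.15. Among other thioredoxin and oxidant defence genes, 12 were above and 8 below 0, with TXNDC12 at 0.37 and PRDX2 at -0.20. Of the other pentose phosphate and NADPH genes 15 of 17 were above 0, but the median was 0.04. MTHFD1, of folate metabolism, was at 0.30 and DERA at -0.20.

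Other iron genes had 12 above and 8 below 0. SLC39A14, an importer of zinc and of iron, averaged 168 ± 9.05 CPM in the double knockout and 141 ± 10.9 CPM in the JUN knockout libraries (SD, n = 3 each). SLC25A28, mitoferrin 2, which brings iron into mitochondria, averaged 26.2 ± 1.35 CPM in the double knockout and 31.0 ± 0.469 CPM in the JUN knockout libraries (SD, n = 3 each). Haem genes had 5 above and 8 below 0, with a median of -0.07. HEBP1, a haem binding protein, had a log2 fold change of 0.26. Iron-sulfur cluster genes had 8 above and 14 below 0, with the cochaperone HSCB at 0.38 and the ferredoxin FDX1 at -0.24. Of the ferroptosis and lipid peroxidation genes 7 of 10 were above 0. ALOX5AP, the activating protein of leukotriene synthesis, averaged 75.2 ± 7.63 CPM in the double knockout and 54.7 ± 10.8 CPM in the JUN knockout libraries (SD, n = 3 each). DHODH, a mitochondrial enzyme of pyrimidine synthesis, had a log2 fold change of -0.18.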

How the data were processed

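6 polyA RNA libraries were used, 3 ATF3/JUN double knockout and 3 JUN knockout. FastQC 0.11.9, Salmon 1.6.0 and the build hg38 are named in the submitters' processing notes. The deposited files hold estimated counts and TPM of 177456 transcripts, per the file headers; effective lengths were identical in the 6 files. Transcripts were joined to GENCODE release 29 by identifier without version, with 167027 (94.1%) matched in 35052 genes. The rest held 3.58% to 3.71% of a library's reads and was left out, which could lower a gene with an unmatched copy. Counts were summed per gene and rounded, and TPM summed.

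edgeR 4.0.16 (R 4.3.3) tested 12954 genes with filterByExpr, TMM, robust dispersion and a two-sided quasi-likelihood F test, with Benjamini-Hochberg adjustment at 0.05. A standard error (SE) is the log2 fold change over the square root of F. Scripts were tested on simulated data. DESeq2 1.42.0, limma-voom (limma 3.58.1), other scalings, filters and left-out libraries were alternatives. No 2 libraries agreed within sampling noise (lowest chi-square 12.3 per gene).

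The members and lists were chosen with earlier results of these data known. Values in every library are given for the regulators, the highest and lowest gene by CPM of each role, genes with an unadjusted p under 0.05, genes called for the replicate number and the 4 widest ranges; in each wider list the lowest p in each direction is named, except 1 gene that is not reported here, and other genes named there were chosen after their values were seen.

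In the deposited file names a shared code joins libraries of one number across genotypes; no label says so. The numbers were taken as pairs on that shared code. After subtracting group means, the correlations of same-numbered libraries were 0.387, 0.103 and 0.523. With a pseudocount of 2 in place of 0.5, number 2 was at 0.0737. These correlations come from the same values as the tests with the replicate number, so they are no independent check of the pairing. Number 2 did not stand out from mismatched libraries: double knockout 2 correlated at 0.201 with JUN knockout 1, and JUN knockout 2 at 0.103 with double knockout 3.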

Additional observations from a re-analysis of the deposited data

How the results depend on the processing

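No value of the 33 genes passed the threshold between the genotypes under any setting (0 values). The replicate block left 0 genes and 0 of the 33 called, with a median log2 fold change of 0.04 over the 32, and the pairing changed no call. The number of all genes called was 1 without the low-count filter, 71 with DESeq2, 4 with limma-voom and 0 to 1 with libraries left out. With an offset for transcript length the median was 0.237 for the regulators and 0.125 for the glutathione genes. With libraries left out, medians ran from 0.010 to 0.072 over all, 0.055 to 0.233 for regulators, -0.023 to 0.050 for glutathione, -0.135 to 0.081 for thioredoxin, -0.046 to 0.261 for catalase and superoxide dismutase, -0.142 to 0.3004 for quinone and haem genes, 0.034 to 0.160 for pentose phosphate and -0.0012 to 0.118 for iron genes.

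Genes called for the replicate number were 686 without the filter, 905 with DESeq2, 61 with the length offset, 139 without robust dispersion (an alternative added after the data were seen), and 141 to 2634 with a library left out. Of the 33, 3 were called without the filter (TFRC, NQO1 and SLC40A1), 2 with DESeq2 (TFRC and PRDX1), 0 with the length offset and 1 to 10 with a library left out. The 10 were called without double knockout replicate 1. The cause of these differences was not tested.

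With all libraries kept, 5 of 254 values turned sign: SLC40A1 at -0.049 in limma-voom, and GCLC at 0.031, PRDX3 at 0.0019, PRDX6 at 0.037 and IREB2 at -0.072 with the length offset. With libraries left out 58 of 288 did, in 22 genes: KEAP1 -0.0031 to 0.063, GCLM -0.045 to 0.098, GCLC -0.12 to 0.11, GSR -0.00105 to 0.18, GPX1 -0.10 to 0.016, GPX4 -0.19 to 0.044, TXNRD1 -0.021 to 0.11, TXN -0.23 to 0.068, PRDX3 -0.13 to 0.094, PRDX6 -0.16 to 0.063, SOD1 -0.37 to 0.012, NQO1 -0.52 to 0.10, OSGIN1 -0.18 to 0.46, TALDO1 -0.054 to 0.26, TKT -0.060 to 0.061, ME1 -0.17 to 0.32, FTL -0.14 to 0.21, FTH1 -0.10 to 0.042, TFRC -0.37 to 0.18, SLC40A1 -0.39 to 1.502, IREB2 -0.0036 to 0.088 and ACO1 -0.0016 to 0.061. The other 10 kept their sign: NFE2L2 0.00090 to 0.146, BACH1 0.076 to 0.324, MAFG 0.258 to 0.436, GSS 0.0020 to 0.319, SRXN1 0.093 to 0.209, PRDX1 -0.461 to -0.114, CAT 0.244 to 0.509, BLVRB 0.157 to 0.371, PGD 0.139 to 0.292 and SLC11A2 0.020 to 0.146. The depth limits HMOX1, OSGIN1, ME1 and SLC40A1, which had at most 65 reads in a library.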
